A study of Saccharomyces cerevisiae SK1 with 28 samples.

Results

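The data are ChIP-seq summits from budding yeast that lie in the promoter windows of 2 genes at once. A summit is the point of highest signal within a peak of immunoprecipitated DNA. Each deposited table pairs a summit with the gene or genes whose promoter window, 600 bp wide and ending at the gene start, contains it. Summits were chosen by position, as those whose peak name stood in 2 or more rows of its table, and 313 of the 1055 listed summits met this (29.7%). They are called shared summits below. The other 742 lay in the window of 1 gene and are called single-gene summits. Of the shared summits, 312 lay in 2 windows and 1 lay in 3, those of URA6, YKL023C-A and YKL023W. The 313 summits fell on 112 gene pairs, and the genes of each pair were divergent, pointing away from each other with the summit between them.

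All cells were wild-type SK1, a laboratory strain that sporulates efficiently, kept at 30 °C, and crosslinking was done in 1% formaldehyde during 15 min. Each of 7 states had 2 ChIP libraries and 2 input libraries. One state was exponential growth in the rich medium YPD with dithiothreitol (DTT) added, and another was the same growth without DTT, called vegetative below. The remaining states were 6 h and 21 h in BYTA, the medium labelled as premeiotic starvation, and sporulation medium, labelled as meiotic, after 5.5 h, 6 h 45 min and 8 h. Neither the immunoprecipitated protein nor the DTT dose or exposure time is given in the sources used here. The title of the series names the unfolded protein response (UPR) in gametogenesis, so the comparisons ask which promoters were occupied in premeiotic and meiotic cells, beside cells under reducing stress.

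The UPR is the programme by which a cell answers misfolded protein in the endoplasmic reticulum (ER). In budding yeast the ER sensor Ire1 starts the splicing of HAC1 mRNA, and the Hac1 protein then activates genes for chaperones, disulfide isomerases, glycosylation and secretion. DTT reduces disulfide bonds and is a standard inducer. The yeast genome is compact, and many neighbouring genes are transcribed in opposite directions out of 1 intergenic region, so a bound site there can stand upstream of both genes. Occupancy alone does not say which of the genes, if any, responds.

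The tables listed between 4 and 296 summits per library. DTT libraries had 296 and 245, vegetative libraries had 18 and 13, libraries at 6 h in BYTA had 277 and 91, and the other 8 libraries had 4 to 23. Read depth is unknown from the tables, and so is the criterion for listing a summit, so a promoter that was not listed is not thereby shown to be unbound.

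Shared summits made up most of the list in sporulating cells and about 1 in 4 summits in cells with DTT or early in BYTA. Over the 6 libraries in sporulation medium the share was 78.3% ± 9.92 (SD, n = 6), with a lowest value of 61.1% and a highest of 90%. At 5.5 h it was 3 of 4 summits in replicate 1 and 11 of 18 in replicate 2. At 6 h 45 min it was 7 of 9 and 11 of 13 summits. At 8 h it was 9 of 10 and 13 of 16. The exact 95% intervals of these 6 shares, which cover counting error only, reached from a lower bound of 19.4% for the list of 4 to an upper bound of 99.7%.

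The states outside sporulation medium split by time in BYTA. At 21 h the share was 63.6% (14 of 22 summits) in replicate 1 and 60.9% (14 of 23) in replicate 2. At 6 h it was 25.3% (70 of 277) and 26.4% (24 of 91). With DTT it was 23.3% (69 of 296, 95% interval 18.6 to 28.6) and 24.1% (59 of 245, 18.9 to 29.9). In vegetative cells it was 27.8% (5 of 18, 9.69 to 53.5) and 30.8% (4 of 13, 9.09 to 61.4). The 8 libraries at 21 h in BYTA and in sporulation medium all lay at 60.9% or more, and the other 6 libraries all lay at 30.8% or less.

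**Figure D1:**
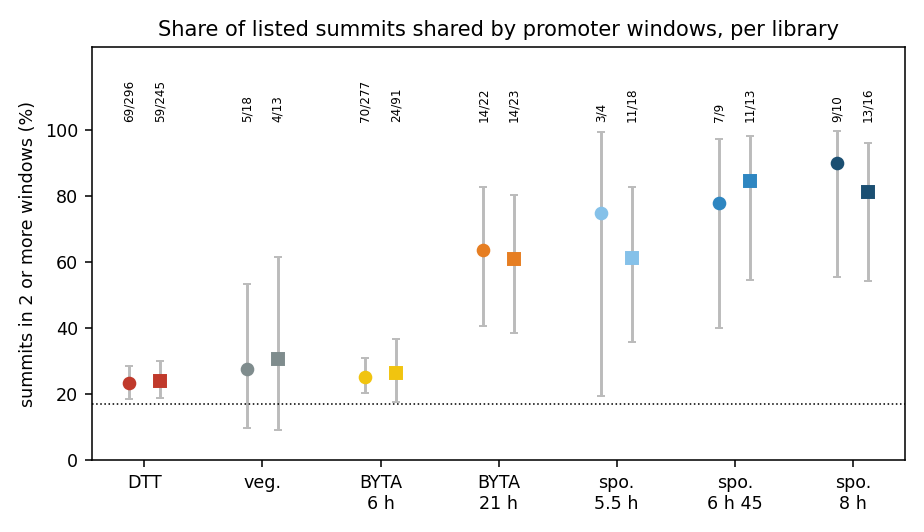
Share of listed summits that lie in 2 or more promoter windows (y axis, percent) in each ChIP library, by state (x axis); bars are exact 95% intervals of the counts and the dotted line is the 17.1% of promoter-window bases in the R64 reference that lie in windows of both strands. The 8 libraries at 21 h in BYTA and in sporulation medium lie between 60.9% and 90%, and the other 6 between 23.3% and 30.8%.

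The share in sporulation medium was higher by 34.3 percentage points than over the 4 BYTA libraries, which averaged 44.04% ± 21.1 (SD, n = 4; two-sided exact permutation test over libraries, p = 0.00952, Benjamini-Hochberg adjusted over 3 comparisons 0.0286). It was higher by 54.6 points than with DTT, which averaged 23.7% ± 0.545 (SD, n = 2), and the exact permutation p of 0.0357 is the smallest that 6 libraries against 2 allow (adjusted 0.0357). It was higher by 49.0 points than in vegetative cells, which averaged 29.3% ± 2.12 (SD, n = 2; exact permutation p = 0.0357, adjusted 0.0357). Set against the 21 h BYTA libraries alone, the difference was 16.04 points with an exact permutation p of 0.107, so a difference between sporulating cells and cells late in BYTA did not pass the threshold. Without the 11 promoters listed in 7 or more libraries, an alternative chosen after the data were seen, 4 sporulation libraries kept summits and none of the 3 differences passed the threshold. They were 24.2 points against BYTA, 36.6 against DTT and 49.7 against vegetative cells (exact permutation p = 0.114, 0.133 and 0.0667, adjusted 0.133 each), and 4 libraries against 2 cannot go below 0.0667. All these tests count each library as independent, replicates of a state and times in the same medium included. Shares were not tested with states as units.

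Length of list moved with the share: sporulation libraries had 4 to 18 summits and DTT libraries had 245 and 296, although the vegetative lists of 18 and 13 summits had shares near those of DTT. Among the 10 best-scored summits of each library, shared ones numbered 3 and 3 with DTT, 4 and 4 in vegetative cells, and 4 and 4 at 6 h in BYTA. They numbered 7 and 8 at 21 h in BYTA. In the sporulation libraries with at least 10 summits they numbered 8 in replicate 2 at 5.5 h, 9 in replicate 2 at 6 h 45 min, and 9 and 9 at 8 h. With lists held to at most 10 summits, the differences were 26.3 points against BYTA, 53.8 against DTT and 43.8 against vegetative cells. The sporulation lists of 4 and 9 summits entered whole, so the lengths were not fully equal. In the R64 reference, 17.1% of the bases covered by 600 bp promoter windows lie in windows of both strands, which is a description of the genome and not a test.

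A summit in a wide intergenic region can lie between divergent genes and still reach only 1 window. Among single-gene summits whose gene could be placed in R64, 211 of 723 (29.2%) lay upstream of a gene with a divergent neighbour. Counting those as well, 56 of 70 summits in sporulation medium (80%) were shared or lay upstream of a gene with a divergent neighbour. Whether each single-gene summit lay before the start of that neighbour was not checked, and the 2 of KAR2 with DTT lay past it. The same count gave 46.4% with DTT, 38.7% in vegetative cells, 49.4% at 6 h in BYTA and 71.1% at 21 h. Of the 4450 distinct upstream regions of R64, 34.7% are divergent, where each region counts once and not once per library. Sporulation medium stood above DTT, vegetative cells and 6 h in BYTA by this count too.

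Few promoters, seen repeatedly, made up the shared summits of sporulation medium. The 54 shared summits there fell on 15 gene pairs, and 41 of them (75.9%) belonged to 9 pairs that were listed in 7 or more of the 14 libraries. Those 9 pairs held 77.8% of the shared summits in vegetative cells and 57.1% at 21 h in BYTA. They held 10.6% at 6 h in BYTA and 7.03% with DTT. The sporulation libraries count toward the minimum of 7, so this share was not tested. Of all listed summits, 0 of 4 and 10 of 18 at 5.5 h lay outside every promoter listed in 7 or more libraries. At 6 h 45 min these were 2 of 9 and 4 of 13, and at 8 h 0 of 10 and 7 of 16. Those recurrent promoters include the single-gene ones of HSH49 and PSA1, so recurrence was not particular to shared summits. Counted as distinct promoters, 15 of 23 in sporulation medium were shared (65.2%), against 17 of 29 at 21 h in BYTA (58.6%), 72 of 282 at 6 h (25.5%), 72 of 312 with DTT (23.1%) and 5 of 20 in vegetative cells (25%). Of the 15 pairs, 13 were also listed in a library at 21 h in BYTA, 8 at 6 h in BYTA, 7 with DTT and 4 in vegetative cells. The exceptions at 21 h were RIM15/HAC1 and IFH1/YLR224W. IFH1, which encodes a coactivator of ribosomal protein genes, shares with YLR224W the 1 pair listed in sporulation medium alone, in replicate 2 at 5.5 h and at 8 h.

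TPM1/NIS1 led the lists in sporulation medium. TPM1 encodes the major tropomyosin, which binds and stabilises actin cables, and NIS1 encodes a septin-binding protein of the bud neck. The pair lies on chromosome XIV with gene starts at 482297 and 482904 of the SK1 tables. It ranked 1 and 2 by score at 5.5 h, 1 and 1 at 6 h 45 min and 1 and 1 at 8 h, and it ranked 1 of 22 and 2 of 23 at 21 h in BYTA. Outside these states it was listed in 1 vegetative library, at 7 of 18, and in 1 DTT library, at 294 of 296. Its summit stayed between 196 and 214 bp upstream of TPM1 in the 10 libraries that list it.

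GCV2/MRPS17 was listed in all 6 sporulation libraries too. GCV2 encodes a subunit of the mitochondrial glycine decarboxylase complex, and MRPS17 encodes a protein of the small mitochondrial ribosomal subunit. The pair lies on chromosome XIII with starts at 610093 (MRPS17) and 610589 (GCV2). Its ranks were 2 and 1 at 5.5 h, 4 and 2 at 6 h 45 min and 2 and 3 at 8 h, beside 7 and 10 at 21 h in BYTA and 3 and 8 in vegetative cells. The DTT libraries and those at 6 h in BYTA, the longest lists of the series, did not list it. Its summit moved over 22 bp in all, 174 to 196 bp from MRPS17.

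MBF1/BUD7 was the third pair listed in all 6 sporulation libraries. MBF1 encodes a transcriptional coactivator that works with Gcn4, and BUD7 encodes a protein for the export of cargo from the Golgi to the cell surface. It ranked 3 and 5 at 5.5 h, 6 and 6 at 6 h 45 min, 4 and 6 at 8 h, and 5 and 5 at 21 h in BYTA. It was far down the lists of 1 DTT library (195 of 296) and 1 library at 6 h in BYTA (162 of 277). Both replicates at 21 h in BYTA and at each time in sporulation medium placed it within the best 6.

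HMO1/ARG82 and YAP1802/FMP43 were each listed in 5 of the 6 sporulation libraries. HMO1 encodes a high mobility group protein that binds ribosomal DNA and ribosomal protein genes, and ARG82 encodes an inositol polyphosphate multikinase. YAP1802 encodes a clathrin assembly protein and FMP43 a subunit of the mitochondrial pyruvate carrier. YAP1802/FMP43 ranked 2 of 22 and 1 of 23 at 21 h in BYTA, 7 and 2 at 8 h in sporulation medium, and 144 of 277 in the 1 library at 6 h in BYTA that lists it. HMO1/ARG82 ranked 4 and 3 at 21 h in BYTA, 6 and 5 at 8 h in sporulation medium, and 11 of 296 and 39 of 245 with DTT.

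DCP2/MLS1 and RPA14/CPR1 were each listed in 4 sporulation libraries. DCP2 encodes the catalytic subunit of the mRNA decapping enzyme, and MLS1 encodes malate synthase of the glyoxylate cycle, which yeast needs to grow on acetate. RPA14 encodes a subunit of RNA polymerase I and CPR1 the cytosolic cyclophilin A. DCP2/MLS1 was listed in both replicates with DTT (164 and 145), at 6 h in BYTA (53 and 31), at 21 h in BYTA (13 and 7) and at 8 h in sporulation medium (8 and 9). It was the 1 pair of the 9 that both replicates listed in those 4 states.

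Another 3 pairs stood in both libraries at 21 h in BYTA and in replicate 2, not replicate 1, at each of the 3 times in sporulation medium. They are RPB11/SIN3, a subunit of RNA polymerase II and a histone deacetylase corepressor, PHO91/YNR014W, with the vacuolar phosphate transporter, and PPH22/YDL186W, with a catalytic subunit of protein phosphatase 2A. Their best ranks in sporulation medium were 7, 9 and 12. Replicate 2 had the longer list at each of these times, with 18, 13 and 16 summits against 4, 9 and 10 in replicate 1.

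**Figure D2:**
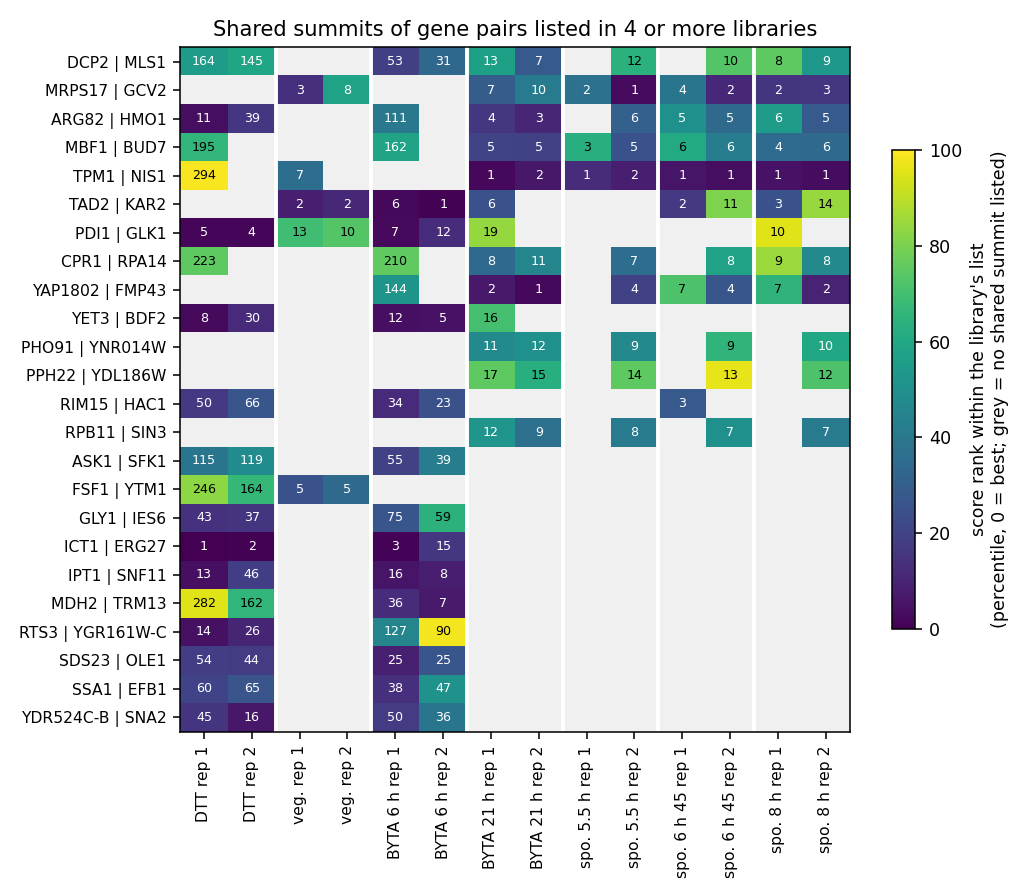
Gene pairs listed in 4 or more libraries (rows) by ChIP library (columns); a filled cell is a shared summit, its number is the rank of the summit by score within that library's list and its colour the rank percentile. The 9 uppermost pairs are listed in 8 to 10 libraries, and TPM1/NIS1 has rank 1 in 5 of the 6 sporulation libraries.

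KAR2/TAD2 and PDI1/GLK1 carry the central chaperone and the main disulfide isomerase of the ER, and both recur across states. KAR2 encodes BiP, the Hsp70 of the ER lumen and a classic UPR target, and TAD2 encodes a subunit of the tRNA adenosine deaminase. Their starts lie at 392022 (KAR2) and 391696 (TAD2) on chromosome X, only 325 bp apart. The shared summit ranked 2 of 9 and 11 of 13 at 6 h 45 min in sporulation medium and 3 of 10 and 14 of 16 at 8 h. It ranked 6 of 277 and 1 of 91 at 6 h in BYTA, 6 of 22 in replicate 1 at 21 h, and 2 of 18 and 2 of 13 in vegetative cells. The summits lay 156 to 168 bp from KAR2 and 158 to 170 bp from TAD2, a range of 12 bp over 9 libraries and the narrowest of the 9 recurrent pairs.

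With DTT the KAR2 summit lay elsewhere and was no longer shared. It stood 510 bp upstream of KAR2 in replicate 1 and 390 bp in replicate 2, which is 184 and 64 bp past the start of TAD2. The replicates therefore differed by 120 bp from each other, and both lay outside the range of the other 9 libraries. Neither 5.5 h library listed the promoter.

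PDI1/GLK1 lies on chromosome III, with starts at 50855 (PDI1, protein disulfide isomerase) and 51466 (GLK1, glucokinase). It ranked 5 of 296 and 4 of 245 with DTT, 7 of 277 and 12 of 91 at 6 h in BYTA, and 13 of 18 and 10 of 13 in vegetative cells. In the late states it was last or nearly so, at 19 of 22 in 1 library at 21 h in BYTA and at 10 of 10 in 1 library at 8 h in sporulation medium. It was the 1 pair present in both replicates with DTT, in vegetative cells and at 6 h in BYTA.

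HAC1, the UPR transcription factor gene itself, shares its promoter with RIM15, a protein kinase that carries nutrient signals in starvation and early meiosis. The starts are 768 bp apart on chromosome VI. The shared summit ranked 50 of 296 and 66 of 245 with DTT, 34 of 277 and 23 of 91 at 6 h in BYTA, and 3 of 9 in replicate 1 at 6 h 45 min in sporulation medium. It lay 221 to 229 bp from HAC1 in the 5 libraries, and 540 to 548 bp from RIM15. The other 9 libraries did not list it.

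At 5 of the recurrent pairs the summit sat at another place in late cells. Libraries at 21 h in BYTA and in sporulation medium are set here against libraries at 6 h in BYTA or under DTT, a grouping chosen after the positions were seen, so no test is given. At RPA14/CPR1 the summit lay 351 to 371 bp from CPR1 in 6 late libraries and 251 and 258 bp in 1 DTT library and 1 library at 6 h in BYTA. At YAP1802/FMP43 it lay 360 to 370 bp from YAP1802 in 7 late libraries and 448 bp in 1 library at 6 h. At MBF1/BUD7 it lay 243 to 263 bp from MBF1 in 8 late libraries and 201 and 208 bp in the 2 others. These ranges did not overlap.

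The other 2 pairs moved less. At HMO1/ARG82 the summit lay 185 to 211 bp from ARG82 in 7 late libraries and 240 to 257 bp in 3 libraries with DTT or at 6 h in BYTA. At DCP2/MLS1 it lay 241 to 273 bp from DCP2 in 6 late libraries and 286 to 314 bp in 4 others, with 13 bp between the ranges. The late summits lay farther from CPR1 and MBF1, and nearer to YAP1802, ARG82 and DCP2, all 5 on the minus strand. At KAR2/TAD2, PDI1/GLK1, TPM1/NIS1, RIM15/HAC1 and BDF2/YET3 the ranges of the same 2 groups of libraries overlapped. The count of 5 of 10 pairs without overlap stands beside 1 of 4 single-gene promoters listed in both groups. Over all 14 promoters, which include the 10 pairs, it was 42.9%. These counts are small, and the difference between the 2 kinds was not tested. MDJ1/HSP12 and GNP1/SMT3, also described with the window edges, had single-gene summits in the late libraries and are not in this count. The single-gene DTT summits of KAR2, which lay elsewhere, are left out too. TPM1/NIS1 had 1 library in the earlier group, and RIM15/HAC1 and BDF2/YET3 each had 1 in the late group.

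Replicates placed a pair's summit close together. Over the 110 cases of a pair listed in both replicates of a state, the replicates differed by a median of 4.5 bp and at most 38 bp. Between states the distances depended on the states compared. The 13 pairs listed at both 8 h in sporulation medium and 21 h in BYTA differed by a median of 4.5 bp and at most 27 bp. The 7 pairs listed at both 8 h in sporulation medium and 6 h in BYTA differed by a median of 54 bp, with 2 within 50 bp. The 41 pairs listed at both 6 h in BYTA and with DTT differed by a median of 7 bp, with 38 within 50 bp. These sets hold different pairs, and the differences between them were not tested. No such distances are given here for single-gene promoters, so they are not shown to be traits of shared pairs.

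DTT and 6 h in BYTA held most of the pairs, and those were mostly listed nowhere else. Of the 112 pairs, 29 were listed with DTT alone, 29 at 6 h in BYTA alone and 34 in these 2 states alone. These states also had the longest lists, with 541 (DTT) and 368 (6 h in BYTA) of the 1055 listed summits. No such count is given here over all listed promoters, so it is not shown to be a trait of shared pairs. Both replicates listed 56 of 72 pairs with DTT, 4 of 5 in vegetative cells, 22 of 72 at 6 h in BYTA and 11 of 17 at 21 h. In sporulation medium both replicates listed 3 of 11 pairs at 5.5 h, 6 of 12 at 6 h 45 min and 8 of 14 at 8 h. Over all listed genes, both replicates listed 74.7% with DTT, 60% in vegetative cells, 30.4% at 6 h in BYTA and 58.7% at 21 h, and 24.1%, 48.1% and 54.8% at the 3 times in sporulation medium. The pairs thus recurred at rates near those of all genes. Of the pairs in both replicates, 13 were common to 6 h in BYTA (59.1% of its 22) and DTT (23.2% of its 56). Another 7 were common to 8 h in sporulation medium (87.5% of its 8) and 21 h in BYTA (63.6% of its 11).

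The 5 best-placed pairs with DTT were ICT1/ERG27, PDI1/GLK1, SIL1/GAS5, PMT1/RPN6 and BDF2/YET3. ICT1/ERG27, a lysophosphatidic acid acyltransferase and a sterol reductase, ranked 1 of 296 and 2 of 245 with DTT, and 3 of 277 and 15 of 91 at 6 h in BYTA. Its summit kept to 377 to 384 bp from ERG27 in these 4 libraries. BDF2/YET3, a bromodomain protein and an ER membrane protein, ranked 8 and 30 with DTT, 12 and 5 at 6 h in BYTA and 16 of 22 in 1 library at 21 h. SIL1/GAS5, the nucleotide exchange factor of Kar2 and a cell wall glucanosyltransferase, ranked 20 and 3 with DTT and 97 of 277 in 1 library at 6 h in BYTA. PMT1/RPN6, a protein O-mannosyltransferase and a proteasome lid subunit, ranked 17 and 15 with DTT and 177 of 277 in the same BYTA library.

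At 6 h in BYTA the best-placed pairs were KAR2/TAD2, BDF2/YET3, ICT1/ERG27, PDI1/GLK1 and KEL3/FUM1. FUM1 encodes fumarase and KEL3 a protein with kelch repeats, and this pair ranked 9 of 277 and 14 of 91 at 6 h and was listed in no other state. In vegetative cells 5 pairs were listed, 4 of them in both replicates: KAR2/TAD2, FSF1/YTM1, GCV2/MRPS17 and PDI1/GLK1. YTM1 encodes a ribosome assembly factor and FSF1 a mitochondrial membrane protein. FSF1/YTM1 ranked 246 of 296 and 164 of 245 with DTT, against 5 of 18 and 5 of 13 in vegetative cells, with its summit 227 to 256 bp from YTM1 in the 4 libraries.

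Of the 10 listed genes of ER protein folding, 7 had a shared summit. Over all listed genes, 225 of 561 (40.1%) had a shared summit in at least 1 library. The list holds 19 folding genes. Beside KAR2, PDI1 and SIL1 the 7 were LHS1, an ER Hsp70, and the ER J-domain proteins JEM1 and ERJ5, and MPD1, a disulfide isomerase family member. LHS1/MUD2 lay 63 to 85 bp from LHS1 and 152 to 174 bp from MUD2, a splicing factor gene. JEM1/SMC3 lay 138 and 145 bp from JEM1 and 188 and 195 bp from SMC3, a cohesin subunit gene, in the DTT libraries. KEG1/ERJ5 lay 36 and 38 bp from ERJ5, the shortest distances in the set, in a gap of 202 bp that is also the narrowest. YOR289W/MPD1 lay 93 and 104 bp from MPD1. Apart from KAR2, PDI1 and the 1 library at 6 h in BYTA that lists SIL1 and LHS1, these summits were listed with DTT alone.

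Of 9 listed genes of ER translocation and traffic, 4 had a shared summit: YET3, SEC24, a COPII coat subunit, and SEC62 and SEC63 of the translocon. NOG1/SEC62, whose other gene encodes a GTPase of large ribosomal subunit assembly, ranked 68 of 296 and 88 of 245 with DTT. SEC24/YIL108W ranked 53 and 50 in those libraries. Of 10 listed genes of glycosylation and GPI anchoring, 3 had a shared summit, PMT1, ALG14 and PMI40. YBR071W/ALG14, with a subunit of a dolichol-linked glycosyltransferase, ranked 167 and 140 with DTT and was listed nowhere else.

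Of 17 listed genes of glycolysis and glucose uptake, 2 had a shared summit, GLK1 and PGK1, and the other 15 had single-gene summits alone. ADP1/PGK1, an ABC transporter gene and that of phosphoglycerate kinase, ranked 18 of 296 and 34 of 245 with DTT, 540 and 542 bp from PGK1. In 1 library at 6 h in BYTA its summit lay 418 bp from PGK1, the largest move between these 2 states, 123 bp. Of 10 listed genes of acetate and glyoxylate metabolism 3 had one, MLS1, FUM1 and MDH2. MDH2/TRM13, cytosolic malate dehydrogenase and a tRNA methyltransferase, ranked 36 of 277 and 7 of 91 at 6 h in BYTA and 282 of 296 and 162 of 245 with DTT.

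Counts for the remaining lists were small. Of 12 listed genes in the list named cytosolic heat shock, 4 had a shared summit, CPR1, SIS1, SSA1 and MDJ1, whose product is mitochondrial. SSA1/EFB1, a cytosolic Hsp70 and a translation elongation factor, ranked 60 and 65 with DTT and 38 of 277 and 47 of 91 at 6 h in BYTA. The list of translation and ribosome assembly, which also holds FSF1 of the mitochondrial membrane, had 6 of 11. Mitochondrial proteins had 4 of 8, among them YNG1/CYT1 with cytochrome c1, at 197 and 163 with DTT. Of 27 genes of middle meiosis and the spore wall 3 were listed, CRR1, CDA2 and OSW1, and each had a shared summit. CRR1/FRE1, a spore wall protein and a ferric reductase, ranked 83 and 111 with DTT. YLR307C-A/CDA2, with a chitin deacetylase of the spore wall, ranked 56 of 277 and 37 of 91 at 6 h in BYTA. Sporulation medium listed none of these 3. The lists were compared with the 40.1% by count alone, without a test.

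The nearer gene start of a shared summit lay a median of 252 bp away (quartiles 195 and 330, range 36 to 567) and the farther one 397 bp (quartiles 322 and 516, range 116 to 598). Single-gene summits lay a median of 372 bp from their gene (range 34 to 600). The windows fix the upper limits, so these distances are given without a test. The gap between the starts had a median of 662 bp over the 112 pairs, with 202 bp the narrowest and 1156 bp the widest, and 39 pairs had a gap of at most 600 bp.

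By state, the median to the nearer start was 258.5 bp with DTT, 214 bp in vegetative cells, 273 bp at 6 h and 220 bp at 21 h in BYTA, and in sporulation medium 245.5, 218.5 and 231.5 bp at its 3 times. The median to the farther start was 396 bp with DTT, 341 bp in vegetative cells, 462 bp at 6 h and 379.5 bp at 21 h in BYTA, and 392.5, 382 and 388 bp at the 3 times in sporulation medium. Pairs at 6 h in BYTA had the widest gaps, with a median of 741 bp over summits, and those of vegetative cells the narrowest, with 606 bp. The late states had medians of 611.5 to 682.5 bp, and DTT 660 bp. Single-gene summits had lower median distances to their gene in the late states, but these rest on few summits. The median was 235 bp at 21 h in BYTA (17 summits). In sporulation medium it was 227, 275 and 181.5 bp at the 3 times, over only 8, 4 and 4 summits. The upper quartile at 6 h 45 min was 400.5 bp. With DTT the median was 360 bp, in vegetative cells 428.5 bp and at 6 h in BYTA 390.5 bp.

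**Figure D3:**
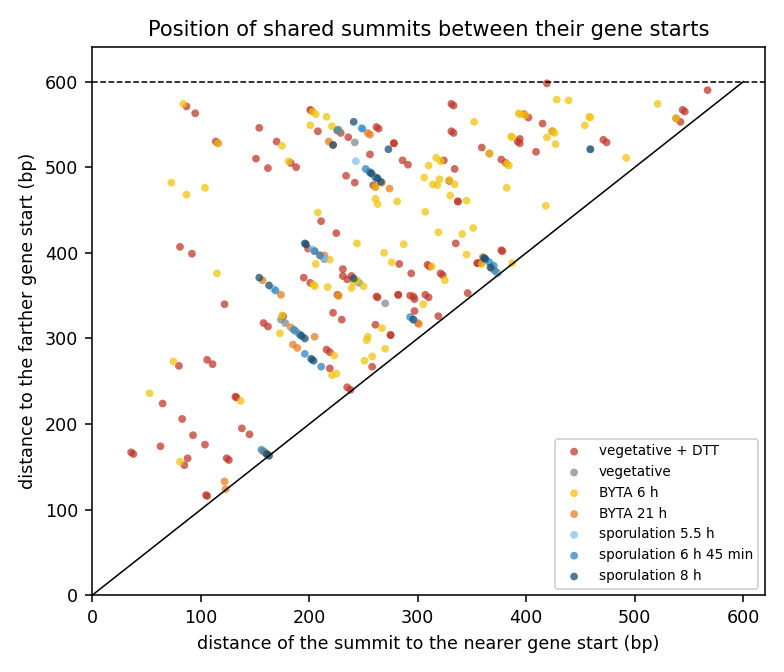
Distance of each shared summit to the nearer gene start (x axis, bp) and to the farther one (y axis, bp), 1 point per summit and library, coloured by state. No point lies above 600 bp, the width of the promoter window, and the medians are 252 bp (nearer) and 397 bp (farther).

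The edge of the window decided a few calls. Just inside it were MAM3/GPD2 in DTT replicate 2, with GPD2, a glycerol-3-phosphate dehydrogenase gene, 598 bp away, YMR194C-B/ICY1 in DTT replicate 1 with 590 bp, and PUT4/CIN1 at 6 h in BYTA with 579 bp. Just outside were MAM3 in DTT replicate 1, where GPD2 was 605 bp away, and YMR194C-B at 6 h in BYTA, where ICY1 was 617 and 618 bp away. RSM7 with DTT followed, 631 and 644 bp from YJR115W. In all, 6 pairs were shared in some libraries and had a single-gene summit in others. Of those 11 single-gene summits, 9 lay beyond 600 bp of the other start and the 2 of KAR2 lay past it.

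MDJ1/HSP12 and GNP1/SMT3 are the remaining pairs of that kind. MDJ1 encodes a mitochondrial J-domain chaperone and HSP12 a small membrane stress protein. At 21 h in BYTA in both replicates, and in replicate 2 at 5.5 h in sporulation medium, the summit lay 251 to 254 bp from MDJ1 and 763 to 766 bp from HSP12, and MDJ1 alone was listed. It was shared in 1 library at 6 h in BYTA, 439 bp from MDJ1 and 578 bp from HSP12. GNP1/SMT3, a glutamine permease gene and that of the SUMO protein, had its summit 206 bp from SMT3 and 754 bp from GNP1 in 1 library at 21 h in BYTA, where SMT3 alone was listed. It was shared in both DTT libraries and 1 library at 6 h in BYTA, 398 to 402 bp from SMT3. At both pairs the late summits lay outside the range of the others.

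The median rank of shared summits was better than that of single-gene summits in 9 of 10 libraries, a difference that did not pass the test after adjustment. The score was not used to choose them, and it was ranked only within a library, from 0 for the best to 100 for the last. The median percentile of shared and of single-gene summits was 36.1 and 80.6 in replicate 2 at 5.5 h in sporulation medium, and 46.9 and 65.6 in replicate 2 at 8 h. It was 40.9 and 72.7, and 39.1 and 67.4, in the libraries at 21 h in BYTA. With DTT it was 41.4 and 51.5, and 43.5 and 52.7. The exception was replicate 1 at 6 h in BYTA, with 57.8 and 48.9, while replicate 2 had 41.2 and 53.3. Vegetative libraries had 25 and 58.3, and 46.2 and 50.0. The other 4 libraries had fewer than 3 single-gene summits and gave no value.

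The mean difference over states was -20.5 percentile points (-12.9 with scores of at least 500, where fewer states had a value). Shared summits stood higher in 6 of 6 states and 9 of 10 libraries. The two-sided exact sign-flip permutation test over states gave p = 0.03125, the smallest that 6 states allow, and 0.0625 after adjustment over 2 measures, so it did not pass the threshold of 0.05.

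Recurrence in the other replicate was higher for shared summits in 9 of 10 libraries, and this did not pass the test either. Of all listed summits, 84.7% with DTT, 64.5% in vegetative cells, 46.2% at 6 h and 71.1% at 21 h in BYTA had a summit within 100 bp in the other replicate. In sporulation medium 36.4% had one after 5.5 h, 63.6% after 6 h 45 min and 69.2% after 8 h. Shared summits recurred in 78.6% and 78.6% of cases at 21 h in BYTA, against 62.5% and 55.6% of single-gene summits. With DTT the values were 81.2% and 96.6% for shared and 76.2% and 92.5% for single-gene summits. At 6 h in BYTA the values were close, 31.4% and 91.7% against 30.4% and 94.0%. The mean difference over states was 16.4 points, positive in 5 of 6 states and 9 of 10 libraries, with an exact sign-flip permutation p of 0.0625 (adjusted 0.0625), which did not pass the threshold. It was 3.64 points without the promoters listed in 7 or more libraries and 6.64 points with scores of at least 500, each over fewer states.

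**Figure D4:**
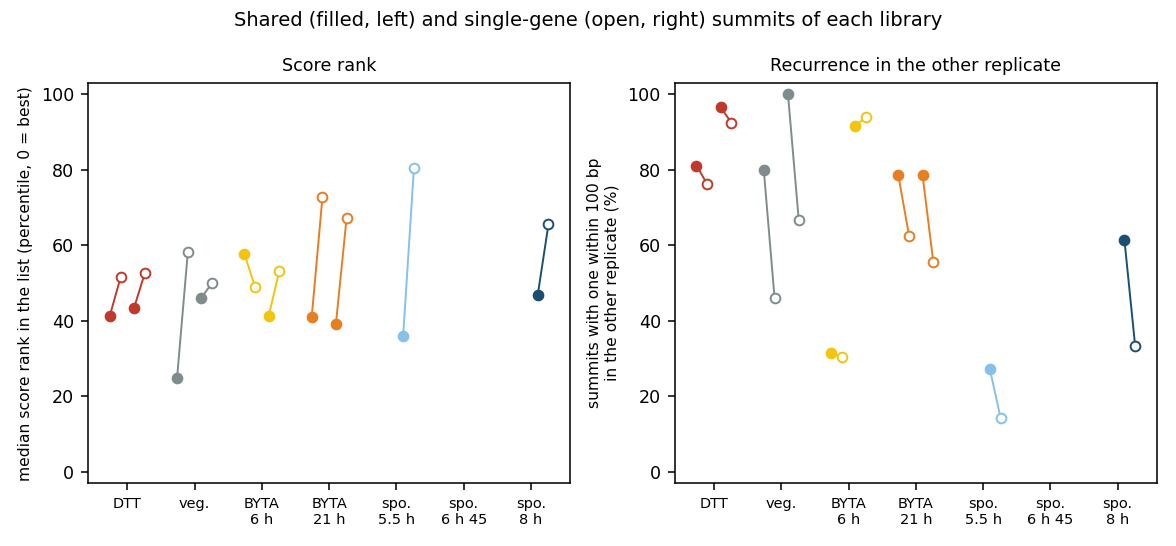
Shared (left) and single-gene (right) summits of each library with at least 3 of either kind, joined by a line and coloured by state: median score rank percentile (left panel, 0 is the best) and percent of summits with a summit within 100 bp in the other replicate (right panel). In 9 of 10 libraries shared summits have the lower median percentile, and in 9 of 10 they recur more often.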

How the data were processed

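Deposited tables were read for the 14 ChIP libraries, 1 each; tables of input libraries were not used here. Per the file headers, a row pairs a peak summit with a promoter window and its gene, with coordinates of an SK1 assembly that is not named. The submitters' processing notes name MACS2 2.2.9.1, Bowtie2 2.3.4.1, ChIPseeker 1.44.0 and SAMtools 1.7 without their roles. The deposited score is the authors' own value of unstated type, and served here for ranks and a minimum inside each list. Peak names of each table came from 1 library.

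Shared summits were found by repeated peak names. A distance was counted to the window edge at the gene, and a pair was a set of genes under 1 summit. Systematic names, 551 in all, matched the RefSeq gene table of R64, used for names and neighbours: 104 of 112 pairs are neighbours there, and their gap was within 5 bp of R64's in 86. Shares per library were compared by two-sided exact permutation over libraries, and rank and recurrence by exact sign flips over states, with Benjamini-Hochberg adjustment in each family and a threshold of 0.05. The 95% intervals (exact Clopper-Pearson) reflect counting error alone. Scripts (Python 3.11.15, numpy 2.4.6, pandas 2.3.3, scipy 1.17.1) were tested on simulated data. Nothing says that replicates came from separate cultures, so the p-values of shares measure the spread between these libraries. Those of rank and recurrence measure how far the differences kept their sign and size over these states.

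The members, gene lists and named pairs were chosen with earlier results of these data known. Pairs named were those in 7 or more libraries, the 5 best by mean rank in both replicates of a state, up to 4 of each gene list in both replicates of a state, up to 6 that were shared in some libraries only, and the 3 summits nearest to the window edge. IFH1/YLR224W, RPB11/SIN3, PHO91/YNR014W, PPH22/YDL186W, JEM1/SMC3, KEG1/ERJ5, YOR289W/MPD1, PMI40, SEC63, OSW1 and SIS1 were named after their values were seen. Replicate numbers did not pair the libraries in most pairs of states, though the correlation of replicate deviations reached 0.624. A planned motif search was not run, since no promoter sequence was used here.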

Additional observations from a re-analysis of the deposited data

How the results depend on the processing

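Shares in sporulation medium averaged more than in BYTA, with DTT and in vegetative cells under each alternative run, but not each passed the threshold. The difference from BYTA was 52.5 points with its 6 h libraries alone (exact permutation p = 0.0357), but 16.04 points with those at 21 h alone (p = 0.107). Without the promoters listed in 7 or more libraries, chosen after the data were seen, no difference passed: 24.2 points from BYTA, 36.6 from DTT and 49.7 from vegetative cells (exact permutation, adjusted p = 0.133 each). Summits scored at least 500 gave 37.9, 64.3 and 49.7 points.

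Leaving out each library in turn gave 28.0 to 40.8 points against BYTA, 52.3 to 58.0 against DTT and 46.7 to 52.5 against vegetative cells. Against DTT and vegetative cells the threshold was missed when a DTT or vegetative library was left out (exact permutation p = 0.143, the smallest possible). Replicate numbers did not pair libraries in most pairs of states. Over 21 pairs of states the correlation of replicate deviations had a median of 0.00913, with 4 over 0.1 and a highest of 0.624. With the replicate block the differences were 34.3 points (exact permutation p = 0.01, adjusted 0.03), 54.6 against DTT and 49.0 against vegetative cells (each p = 0.0625, the smallest possible).

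Without replicate 1 or without replicate 2 the mean difference was -19.4 or -16.6 for rank, and 13.96 to 16.6 for recurrence. With libraries in place of states, rank differed by -18.3 and recurrence by 15.5 points (each exact permutation p = 0.00586), which counts replicates as independent. Recurrence differed by 18.7 points within 50 bp (exact permutation p = 0.03125) and by 14.6 within 200 bp. With scores of at least 500 the differences were -12.9 for rank and 6.64 for recurrence (exact permutation p = 0.0625 and 0.25). Fewer states had a value there, and p could not go below 0.0625. Without the promoters listed in 7 or more libraries the differences were -17.4 and 3.64 (exact permutation p = 0.25 and 0.5). That setting also had fewer states, with a smallest possible p of 0.125. Lists of 4 to 23 summits limit the late states: 1 summit in a list of 4 is worth more than the SD of 9.92 points over the 6 sporulation libraries.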

Other observations

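Of the 79 pairs listed in 2 or more libraries, 70 kept their summit within 50 bp, and the median range was 10 bp. No such count is given here for single-gene promoters, so it is not shown to be a trait of shared pairs. AVL9/CFT2, the genes of a late secretory protein and of a subunit of the mRNA cleavage and polyadenylation factor, ranked 14 of 22 and 8 of 23 at 21 h in BYTA and 16 of 16 in replicate 2 at 8 h in sporulation medium. Its summit lay 218 to 222 bp from AVL9 in these 3 libraries, a range of 4 bp. The pair was named after its values were seen.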
